A study of Mus musculus with 2 samples.

Results

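The genes described here build the kinetochore, run the spindle assembly checkpoint and form the anaphase-promoting complex (APC/C), and they were measured in poly(A) RNA of mouse embryonic stem cells. They were chosen by symbol, with earlier results of these data known. The symbols covered the CENP genes lettered b to x, the Ndc80, Mis12 and Knl1 genes, and the Bub, Mad and Ttk checkpoint genes. They also covered the Aurora and Polo kinases, the chromosomal passenger proteins, the shugoshins, separase and securin, and the APC/C with activators Cdc20 and Fzr1. The symbols gave 65 genes of the 15127 protein-coding genes in the count table, of 67 that GENCODE M21 annotates under the same symbols. The cells were of the pSM44 line, female embryonic stem cells from a cross between 129 and castaneus mice, in which a tetracycline-inducible promoter drives Xist from its own locus on the 129 chromosome. Both libraries formed a single group, grown in serum-free 2i/LIF medium and given doxycycline at 2 μg/mL for 24 h. No untreated cells were analysed here, so no value below is a response to doxycycline or Xist. The counts were 1 column of 10017978 counts that names the line and the treatment but no library, so each gene has 1 value, no replicate error exists and no test between conditions was possible.

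Kinetochores assemble on centromeric chromatin, with an inner layer that binds it and an outer layer, the KMN network, that grips spindle microtubules. An unattached kinetochore recruits checkpoint proteins, which hold back the APC/C by binding its activator Cdc20. Once all chromosomes are attached, the APC/C marks securin and cyclin B for destruction, separase is freed and the sister chromatids part. Embryonic stem cells divide fast and are known to express this machinery.

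The table carried the marks of dividing naive stem cells. Levels are given as CPM, the count of a gene per 1000000 counts of the column. The 6 stem cell markers ran from 312 CPM for Klf4 to 4716 CPM for Dppa5a, and 5 proliferation genes from 112 CPM for Kif11 to 600.0 CPM for Top2a. Of 6 fibroblast markers, Col3a1, Dcn and Lum were not listed, and Col1a1, Col1a2 and Thy1 ran from 5.79 to 26.7 CPM. The blood marker Ptprc was not listed, and the primed markers Fgf5 and Otx2 had 1 and 84 counts. The endoderm markers Gata6 and Sox17 had 19 and 81 counts.

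Nearly all of the mitotic genes were detected. At CPM 1 or more stood 64 of the 65, or 98.5% (Clopper-Pearson 95% interval 91.7 to 99.96), against 80.1% of all listed genes. Counting the 67 annotated genes the share was 95.5% (interval 87.5 to 99.1), against 55.2% of all annotated protein-coding genes. The exception was Anapc15-ps, a retrogene copy of Anapc15, with 7 counts. At CPM 10 or more there were 60 of 65, against 58.9% of all listed genes, and at CPM 100 or more 17 of 65, or 26.2% (interval 16.0 to 38.5), against 15.5%. The shares lay above those of all listed genes at each of these levels. Their median was 58.2 CPM, with quartiles at 29.5 and 108, whereas all listed genes had a median of 18.3 and quartiles at 2.00 and 63.0. On the log2(CPM + 1) scale the medians differed by 1.62, and by 0.93 among genes at CPM 1 or more. Together the 65 genes held 54148 counts, or 0.541% of the total (interval 0.536 to 0.545). Intervals on counts, levels and ratios cover counting error only, since the single column holds no replicate. Reads of the same molecule cannot be told from reads of different ones, so these intervals may be too narrow. Intervals on shares of genes treat the genes as draws and hold no error of the counts.

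**Figure D1:**
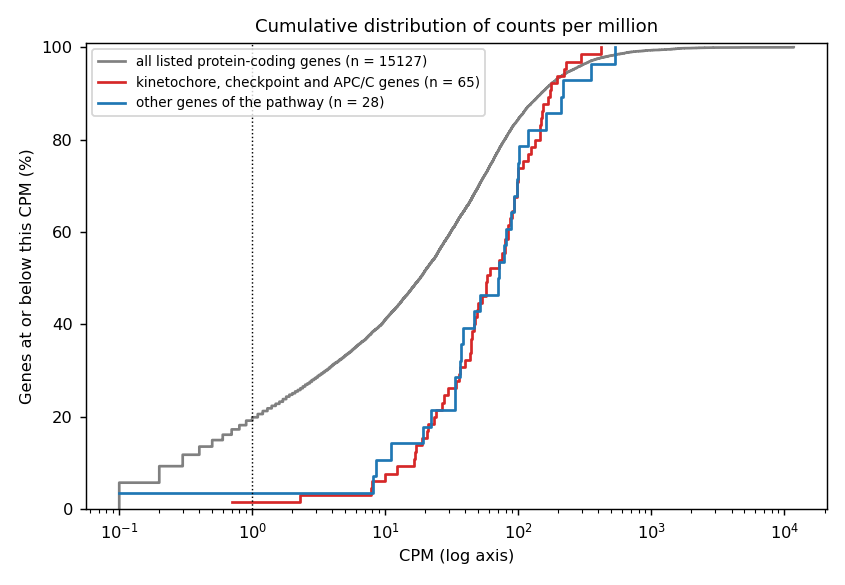
Share of genes (vertical axis, %) at or below each level (horizontal axis, CPM on a log scale) for the 65 kinetochore, checkpoint and APC/C genes, 28 other listed genes of the pathway and all 15127 listed genes; the dotted line marks CPM 1. Both mitotic curves rise mainly between 10 and 100 CPM, to the right of the curve of all genes, and meet it at the high end.

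Longer transcripts collect more counts, so levels of different genes are compared per kilobase of exon, as CPM per kilobase. On this scale the genes had a median of 13.6, all 15078 genes with a length had 3.78, and 56 of the 65 lay above that value. The order of the role groups ran from the APC/C activators with a median of 95.5, through the chromosomal passenger complex with 40.0 and separase and securin with 27.98, down to the KMN network with 7.40 and the shugoshins with 3.40. Between them lay the other Aurora and Polo kinases with 19.8, Cenpv and Cenpj with 17.3, and the checkpoint with 14.9. Also between lay the APC/C itself with 14.8, the inner kinetochore with 10.6 and the corona with 9.96. The activators, separase and securin, the corona, and Cenpv with Cenpj are groups of only 2 listed genes. The activator median lies midway between Cdc20 with 158 and Fzr1 with 32.9, and Fzr1 alone was below the passenger complex median. Length here is the union of all annotated exons, which is inflated where rare long transcripts are annotated. With the longest transcript, or the shortest transcript linked to a curated RefSeq mRNA, the same 3 groups stayed at the top in the same order and the shugoshins stayed lowest. Without Sgo2a, which overlaps another gene, the shugoshin median was 10.2, above the KMN network and the corona. With either transcript length Fzr1 alone had 48.3, below the passenger complex medians of 55.4 and 76.0. The checkpoint median moved to 43.9 and the APC/C median to 34.2 with the RefSeq-linked length, while the median of all genes moved to 6.53.

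**Figure D2:**
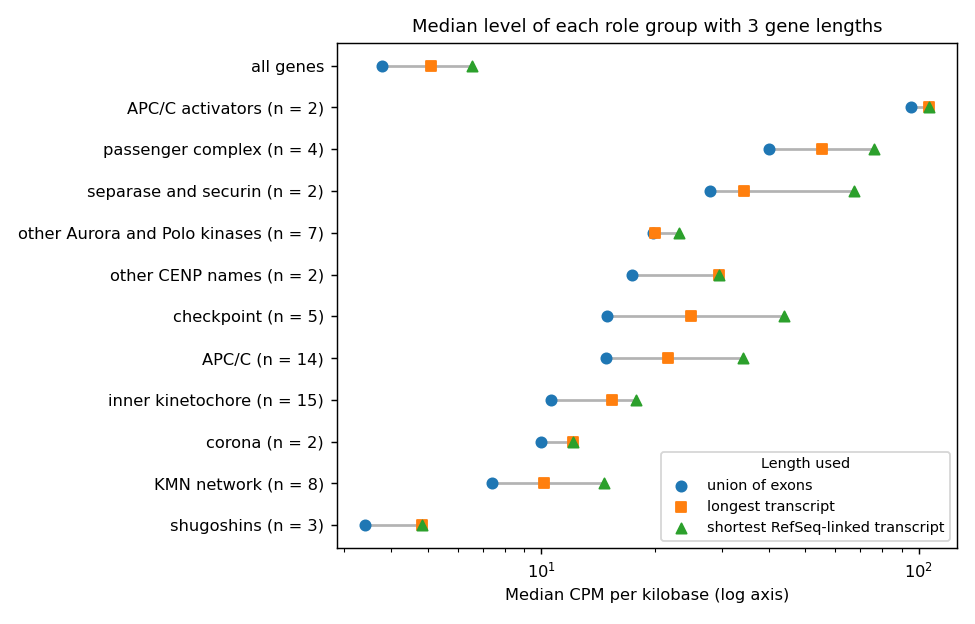
Median level (horizontal axis, CPM per kilobase on a log scale) of each role group, with the number of listed genes, and of all genes; circles, squares and triangles use the union of exons, the longest transcript and the shortest RefSeq-linked transcript as length. The APC/C activators lie at 95.5 to 107 with each length, and the shugoshins at 3.40 to 4.83.

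Many genes of mitosis carry a cell cycle homology region (CHR) at their start, a short element bound by the DREAM and MuvB complexes, with CCAAT boxes for the factor NF-Y close by. The promoter windows, 250 bases before to 50 after the start in RefSeq's GRCm38.p6 annotation, were searched on both strands. A CHR was either TTTGAA or its variant with the letters TTCGAA. The box named CCAAT was searched by those letters, and an E2F site was any of TTTCCCGC, TTTGGCGC, TTTCGCGC and TTTGCCGC. Windows were matched for 61 genes, Cenpb and Bub3 included. A CHR lay in 20 of them (32.8%, interval 21.3 to 46.0), against 21.7% of all 27025 genes with a window and 16.0% of those at CPM 1 or more. CCAAT lay in 34 of 61, or 55.7% (interval 42.45 to 68.45), against 41.1% and 43.3%. An E2F site lay in 6 of 61, or 9.84% (interval 3.70 to 20.2), against 2.61% and 4.79%. Both of these intervals include the share of genes at CPM 1 or more. A CHR and a CCAAT box together lay in 16 of 61 (26.2%, interval 15.8 to 39.1), against 9.65% and 8.08%. In the bases before the start alone, a CHR lay in 16.4%, which is between 19.6% of all genes and 14.4% of those at CPM 1 or more. A CHR and a CCAAT box together lay there in 13.1% (interval 5.84 to 24.2), against 7.93% and 6.76%. All 16 genes with both in the whole window were outside the APC/C core, where 0 of 13 genes held both, which allows a share of up to 24.7%. CHR and CCAAT matches may overlap each other, as they do in Cenpw.

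Most CHR matches lay close to the annotated start. A CHR that began within 50 bases of the annotated start was found in 16 of 61 genes (26.2%), against 6.12% of all genes and 4.19% of those at CPM 1 or more. Of 23 CHR matches in the windows, 16 began in that interval (69.6%), against 25.2% of matches in all windows. This distance was chosen after the positions were seen. The sites of 12 of these genes follow, since they carry that pattern: 30 bases each, in the direction of the gene on GRCm38, with the CHR in capitals and, in the first 3, also the CCAAT box. Read on the opposite strand, a CHR appears as TTCAAA and a CCAAT box as ATTGG.
Cdc20 (chr4:118437340-118437369, minus strand): agttgggtTTTGAAggagCCAATgaacgct
Espl1 (chr15:102296247-102296276, plus strand): tgATTGGtcactagggataTTTGAAaggag
Cenpw (chr10:30200548-30200577, minus strand): tccggcggCCAATTCAAAtcgaccactcgg
Bub1b (chr2:118598231-118598260, plus strand): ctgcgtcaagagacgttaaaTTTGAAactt
Plk1 (chr7:122159453-122159482, plus strand): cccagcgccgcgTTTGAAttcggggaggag
Aurka (chr2:172370521-172370550, minus strand): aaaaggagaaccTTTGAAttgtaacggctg
Bub1 (chr2:127831828-127831857, minus strand): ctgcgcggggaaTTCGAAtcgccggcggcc
Ttk (chr9:83834684-83834713, plus strand): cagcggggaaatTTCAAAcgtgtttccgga
Cenpf (chr1:189688067-189688096, minus strand): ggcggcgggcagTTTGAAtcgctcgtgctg
Spc25 (chr2:69206172-69206201, minus strand): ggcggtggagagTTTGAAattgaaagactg
Sgo1 (chr17:53689271-53689300, minus strand): gtaacgcagaatTTCGAAtgtggcggcggt
Knl1 (chr2:119047138-119047167, plus strand): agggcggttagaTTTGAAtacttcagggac

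In Cdc20 the CHR began at -18, between CCAAT boxes at -53 and -8, and in Espl1 it began at -27 with a CCAAT box at -44. Plk1 and Aurka held theirs after the annotated start, at 31 and 33, with the nearest CCAAT boxes at -14 and -19. The 15 listed genes with both a CHR and a CCAAT box had a median of 26.3 CPM per kilobase, and the other 44 listed genes with a window had 10.5. Among all genes at CPM 1 or more the same split gave 6.85 and 6.54. The split follows the roles in part, since APC/C genes are absent from the first set, and its part in the levels was not tested. A match is a run of letters and does not show that a factor is bound.

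**Figure D3:**
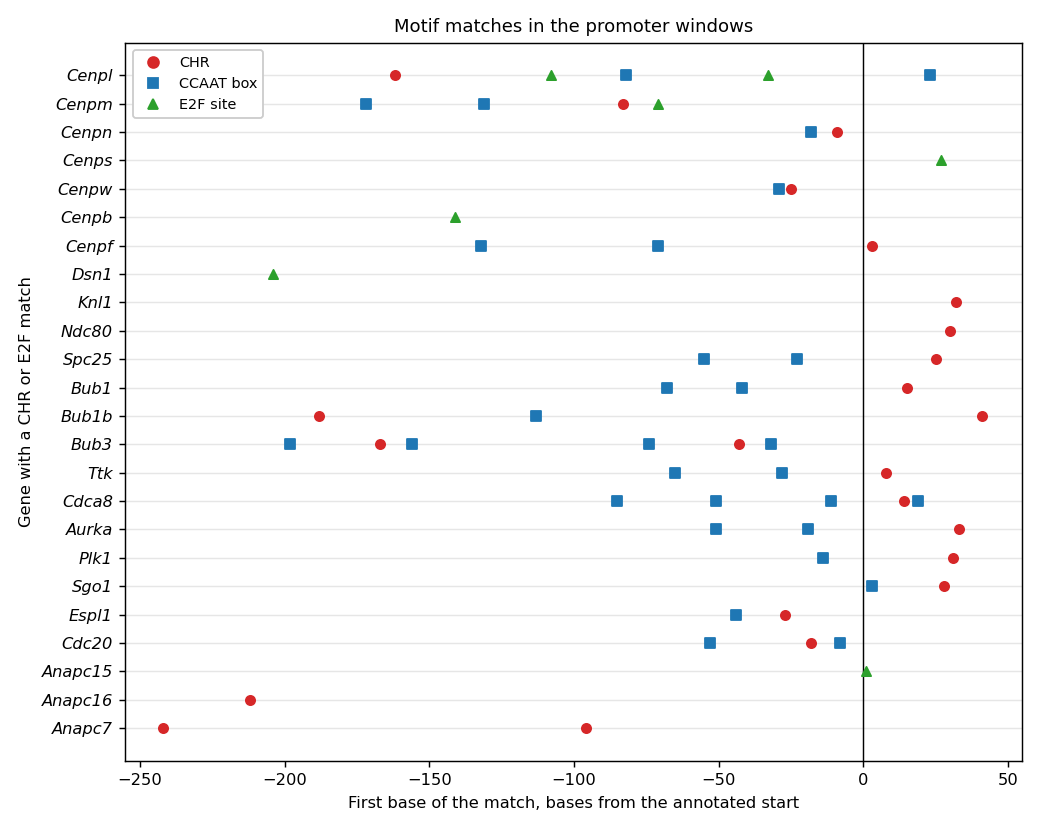
First base of each CHR (circles), CCAAT box (squares) and E2F site (triangles) match, in bases from the annotated start (horizontal axis; genes with several windows show all of them), for the 24 genes with a CHR or E2F match. Most circles lie between -50 and 50, with CCAAT boxes mainly to their left; the CHR matches of Anapc7 and Anapc16 lie farther from the start.

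The inner kinetochore, or constitutive centromere-associated network, links centromeric nucleosomes to the outer layer. All 15 of its chosen genes were at CPM 1 or more, against 80.1% of all listed genes. Its highest transcript per kilobase was Cenpm, with 800 counts or 49.4 CPM per kilobase, followed by Cenpx with 358 counts and 33.2 and Cenpt with 1079 counts and 29.5. Cenph followed with 24.7 CPM per kilobase. Cenpc1, whose protein binds the centromeric nucleosome directly, had 570 counts and 10.1. Cenpi, the only X-linked gene of the 65, had 614 counts and 10.8, a value that pools both alleles. The protein of Cenpt has a long arm that recruits Ndc80 complexes and so bridges both layers.

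Subunits that bind each other in equal numbers differed widely in transcript level. In the CENP-HIKM unit Cenpm stood above Cenpk, which had 78 counts and 1.49 CPM per kilobase, by a ratio of 33.2 (exact binomial 95% interval 26.3 to 42.4). With the longest transcript the ratio was 17.7, and with the RefSeq-linked length 21.05. The histone-fold proteins CENP-T, W, S and X spanned a ratio of 3.71 (interval 3.08 to 4.48), from Cenps with 8.94 CPM per kilobase to Cenpx, and Cenpw lay at 12.6. Cenpn, whose protein reads the CENP-A nucleosome, had 431 counts and 13.1 CPM per kilobase, 3.92 times its partner Cenpl with 190 counts (interval 3.30 to 4.68). That ratio was 2.45 with the RefSeq-linked length.

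The CENP-OPQU unit, which helps dock Plk1 at the kinetochore, was the lowest of the inner units with more than 1 gene. Cenpq had 277 counts, Cenpu 295, Cenpo 207 and Cenpp 164, or 10.6, 7.36, 2.84 and 6.38 CPM per kilobase. The 4 spanned a ratio of 3.73, but 1.42 with the RefSeq-linked length, and then Cenpp was highest. All 4 lie partly under other genes on the opposite strand, from 13.9% of the exonic bases in Cenpq to 67.7% in Cenpp. The part of that overlap in their level was not tested. Itgb3bp, or CENP-R, a partner of this unit outside the chosen symbols, is not in these ratios. It had 1.83 CPM per kilobase, or 3.02 with the RefSeq-linked length, below all 4 with either length.

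Other genes that carry the CENP name act elsewhere. Cenpv had 583 counts and 32.1 CPM per kilobase. Cenpj, which builds centrioles, had 123 counts and 2.52, below the median of all genes. Cenpb, whose protein binds a motif in the centromeric satellite, was not listed.

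**Figure D4:**
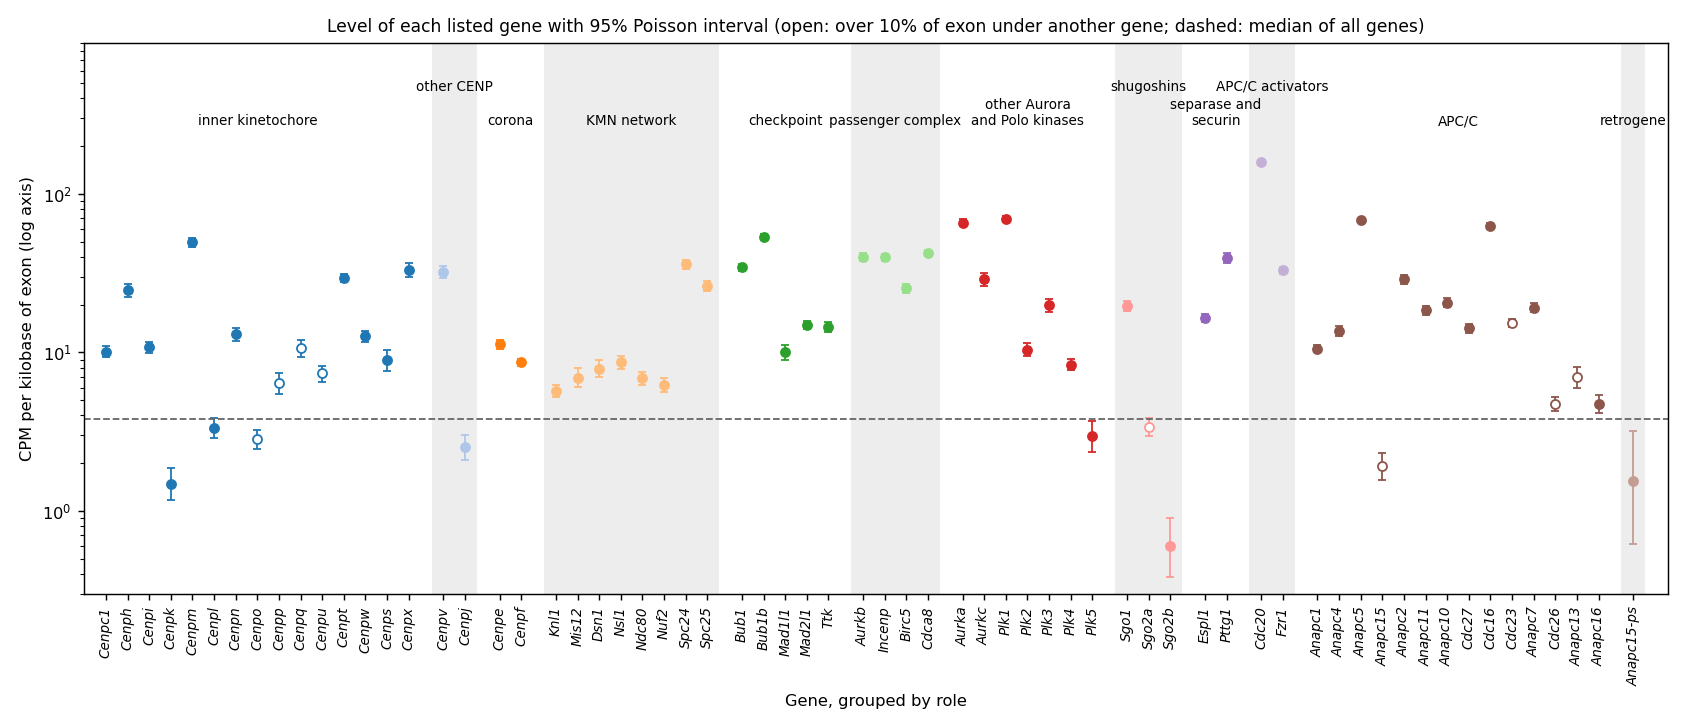
Level (vertical axis, CPM per kilobase of exon on a log scale) of the 65 listed genes by role, with 95% Poisson intervals; open circles have over 10% of their exonic bases under another annotated gene and the dashed line is the median of all genes, 3.78. Cdc20 stands highest at 158, and Sgo2b lowest at 0.601.

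The KMN network was among the lowest groups per kilobase. All 8 of its chosen genes were at CPM 10 or more, against 58.9% of all listed genes. Knl1, the scaffold that carries the Bub proteins, had 489 counts and 5.71 CPM per kilobase. In the Mis12 complex, which joins the inner layer to Knl1 and Ndc80, the 3 chosen genes were even. Mis12 had 208 counts, Dsn1 265 and Nsl1 461, or 6.91, 7.89 and 8.68 CPM per kilobase. The highest and lowest differed by a ratio of 1.26 (interval 1.06 to 1.49). That was the smallest spread among the chosen genes of the 8 complexes compared. With the RefSeq-linked length the ratio was 1.84, Dsn1 was highest, and the chosen CENP-OPQU genes had the smallest spread. A further Mis12 complex subunit, Pmf1, lay outside the chosen symbols and is not in these spreads. It had 1016 counts and 24.96 CPM per kilobase, or 127.6 with the RefSeq-linked length, above all 3 chosen genes with either length.

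The Ndc80 complex fell into a high and a low pair. Spc24 and Spc25, which face the chromosome, had 927 and 840 counts, or 36.0 and 26.3 CPM per kilobase. Ndc80 and Nuf2, which bind the microtubule, had 446 and 398 counts, or 6.86 and 6.27. Spc24 stood above Ndc80 by a ratio of 5.25 (interval 4.68 to 5.88) and Spc25 above Nuf2 by 4.20 (3.72 to 4.74), whereas Ndc80 and Nuf2 differed by a ratio of 1.09 whose interval of 0.954 to 1.26 includes 1. With the RefSeq-linked length the latter ratio was 1.22 (1.07 to 1.41). The gap between the pairs held with that length, where the first ratios were 3.35 and 4.25. Part of Ndc80, 22.9% of its transcript, recurs at 95% identity or more in 2 other genes, most of it in 2700099C18Rik. For Spc24 that share is 13.4%, over 47 other genes, so both values are less certain.

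The corona proteins form the outermost layer before attachment. Cenpe, the motor that carries chromosomes along microtubules, had 974 counts and 11.3 CPM per kilobase. Cenpf, which tethers dynein regulators, had 1337 counts and 8.65. Their ratio of 1.30 (interval 1.20 to 1.42) fell to 1.03 with the longest transcript, with an interval of 0.943 to 1.11, so their order depends on the length.

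Among checkpoint genes the Bub1 family was highest per kilobase of exon. By the RefSeq-linked length, Mad2l1 with 72.3 lay above Bub1b with 62.1 and Bub1 with 43.9. Bub1b, which encodes the BubR1 subunit of the mitotic checkpoint complex, had 2281 counts and 53.3 CPM per kilobase. Bub1, the kinase that recruits shugoshin and Mad1, had 1506 counts and 34.5, lower by a ratio of 1.54 (interval 1.44 to 1.65). Ttk, the Mps1 kinase that starts checkpoint signalling, had 715 counts and 14.5 CPM per kilobase, with Bub1 above it by 2.38 (2.18 to 2.60). The order Bub1b, Bub1, Ttk held with all 3 lengths.

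The Mad genes depended on the length used. Mad2l1, the protein that changes shape to capture Cdc20, had 1250 counts and 14.9 CPM per kilobase. Mad1l1, the scaffold that holds Mad2 at the kinetochore, had 365 counts and 9.98. Their ratio was 1.49 (interval 1.32 to 1.68), and 5.24 with the RefSeq-linked length, since Mad2l1 has an annotated transcript of 7557 bases beside a RefSeq-linked one of 1725. Of that shorter transcript, 26.3% recurs in Gm42430 at 95% identity or more. Bub3, which brings Bub1 and BubR1 to Knl1, was not listed.

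The chromosomal passenger complex corrects faulty attachments, and its 4 transcripts lay close together and high. Cdca8, which encodes borealin, had 2195 counts and 42.3 CPM per kilobase, Aurkb, the kinase, 1188 counts and 40.2, and Incenp, the scaffold, 1725 counts and 39.8. Birc5, or survivin, which reads a histone mark at the centromere, had 865 counts and 25.4. Aurkb and Incenp did not differ beyond counting error (ratio of Incenp to Aurkb 0.988, interval 0.917 to 1.06), but with the longest transcript the ratio was 0.821 (0.762 to 0.885). The highest stood above the lowest by 1.67 (1.54 to 1.81). With the longest transcript this spread was 2.52, and with the RefSeq-linked length 2.53, where Incenp was lowest and Birc5 had 91.2 CPM per kilobase.

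The Aurora paralogs were all present. Aurka, which matures centrosomes and the spindle, had 1669 counts and 65.8 CPM per kilobase, above Aurkb by a ratio of 1.64 (interval 1.52 to 1.76). Aurkc, known for meiosis, had 441 counts and 28.9, below Aurkb by 1.39 (1.25 to 1.56). Its whole transcript recurs at 95% identity or more in 5 other genes, most of it in Gm7789, so the Aurkc value is uncertain.

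Among Polo kinases the mitotic Plk1 stood far above the rest. It had 1531 counts and 69.5 CPM per kilobase, against 19.8 for Plk3, 10.4 for Plk2, 8.37 for Plk4 and 2.98 for Plk5. Plk4, which licenses centriole duplication, had 575 counts, more than the stress-responsive Plk2 with 469 and Plk3 with 502, but lay below both per kilobase; with the RefSeq-linked length it had 17.1 and Plk2 16.7. The ratio of Plk1 to Plk3 was 3.51 (interval 3.17 to 3.89). To Plk4 it was 8.30 (7.54 to 9.15), and 4.21 with the longest transcript. Plk5, which lacks a full kinase domain and is best known from neural cells, had 80 counts.

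The shugoshins guard centromeric cohesion, and the one used in mitosis dominated. Sgo1 had 754 counts and 19.8 CPM per kilobase, above Sgo2a, the meiotic protector, with 239 counts and 3.40, by a ratio of 5.80 (interval 5.01 to 6.74). Sgo2b had 23 counts and 0.601 CPM per kilobase, the lowest of the 65 genes on that scale. Of the exonic bases of Sgo2a, 52.4% lie under Kctd18 on the opposite strand, and the part of that in its level was not tested.

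The protease and its inhibitor were both well expressed. Espl1, separase, had 1445 counts and 16.5 CPM per kilobase, and Pttg1, securin, had 791 counts and 39.5. Per kilobase securin stood above separase by 2.40 (interval 2.19 to 2.61), and by 5.19 with the RefSeq-linked length, although its raw count was lower.

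The APC/C activators included the highest transcript of the 65 genes per kilobase of exon, Cdc20. Anapc5 lay at 175.7 with the RefSeq-linked length, above Cdc20 with 164.7, but at 124 with the longest transcript, below Cdc20 with 164.7. Cdc20, whose protein activates the APC/C in early mitosis and is the target of the checkpoint, had 2959 counts. Its 158 CPM per kilobase stood at percentile 98.1 of all genes with a length. Fzr1, or Cdh1, which takes over at mitotic exit and in G1, had 1479 counts and 32.9. Cdc20 exceeded Fzr1 by 4.81 (interval 4.51 to 5.12), and by 3.41 with the longest transcript. It also stood above its inhibitor Mad2l1, by 10.6 (9.95 to 11.4), but by 2.28 with the RefSeq-linked length.

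The APC/C core, a ubiquitin ligase of many subunits, held both high and low transcripts. Of its 14 genes, all were at CPM 1 or more and 13 at CPM 10 or more, against 80.1% and 58.9% of all listed genes. The platform subunit Anapc5 had 4195 counts, the highest count of the 65 genes, and 68.5 CPM per kilobase. Cdc16, of the arm built from tetratricopeptide repeat proteins, had 1941 counts and 62.4. The other large subunits lay in a narrow band of 10.6 to 19.2 CPM per kilobase: Anapc1 with 1770 counts, Anapc4 with 830, Cdc27 with 891, Cdc23 with 1458 and Anapc7 with 982. Thus Anapc5 exceeded its platform partners Anapc1 and Anapc4 by 6.48 (interval 6.13 to 6.86) and 5.03 (4.67 to 5.42), the latter 8.17 with the RefSeq-linked length. In turn Cdc16 exceeded Cdc27, a neighbour in the arm, by 4.39 (4.05 to 4.75).

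The catalytic subunits had similar counts. Anapc2, the cullin, had 997 counts and 28.9 CPM per kilobase. Anapc10, which helps to hold substrates, also had 997 counts, or 20.6. Anapc11, the RING subunit, had 936 counts and 18.5, so Anapc2 stood above it by 1.56 (interval 1.43 to 1.71). The RefSeq-linked length turned that order: the ratio of Anapc2 to Anapc11 was then 0.341 (0.312 to 0.373).

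The small subunits that brace the complex were the lowest per kilobase of exon. Anapc13 had 166 counts and 6.97 CPM per kilobase, Anapc16 233 counts and 4.76, Cdc26 340 counts and 4.73, and Anapc15, needed to release the checkpoint complex, 99 counts and 1.91. Of these, Anapc15, Cdc26 and Anapc13 have 60.6%, 12.3% and 10.05% of their exonic bases under other genes. For the large subunit Cdc23 that share is 20.5%. Stretches of Cdc26 (31.1% of its transcript), Anapc10 (19.7%) and Anapc15 (15.1%) also recur elsewhere at 95% identity or more, so these values are less certain. The ratio of Anapc5 to Anapc15 was 35.8 (interval 29.3 to 44.1). Among subunits nearly free of overlap the widest ratio was 14.4 (12.6 to 16.5), between Anapc5 and Anapc16. With the RefSeq-linked length Anapc16 with 12.6 CPM per kilobase and Anapc15 with 15.2 were still the lowest of the 14, whereas Anapc13 with 28.1 and Cdc26 with 41.4 lay above Anapc1 and Anapc4.

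Partners outside the chosen symbols were also mostly detected. Of 29 other kinetochore, checkpoint and APC/C genes, 27 were at CPM 1 or more, against 55.2% of all annotated protein-coding genes. Of the 28 listed ones the same 27 passed, against 80.1% of all listed genes. The 28 had a median of 12.5 CPM per kilobase. The highest per kilobase of exon were a pair of ubiquitin-conjugating enzymes of the APC/C: Ube2c, which starts chains, had 3498 counts and 134 CPM per kilobase, and Ube2s, which extends them, 5358 counts and 104. A further such enzyme, Ube2d1, had 334 counts and 7.63. Of the exonic bases of Ube2c, 62.8% lie under Tnnc2. Fbxo5, the Emi1 inhibitor of the APC/C, had 995 counts and 49.6, and its meiotic relative Fbxo43 had 1 count. Zwint, which binds Knl1, had 2090 counts and 47.05, Cenpa, the centromeric histone, 1607 counts and 27.4, and Trip13, which takes checkpoint complexes apart, 774 counts and 22.2. By the RefSeq-linked length, Cenpa was highest with 434.7, above Ube2s with 432 and Ube2c with 361. That rank rests on a Cenpa transcript of 369 bases. With the longest transcript Cenpa had 42.15, below Ube2c with 159.4 and Ube2s with 130.7. Of those at CPM 1 or more, the lowest per kilobase of exon was Itgb3bp, also called CENP-R, with 85 counts and 1.83. Ska2, of the Ska complex on microtubules, had fewer counts, 81, and was lower with the RefSeq-linked length, with 2.66 against 3.02. Haspin was not listed.

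The genes missing from the table shared a property of position. Cenpb (chromosome 2, 131175182 to 131180067, GRCm38) lies wholly within the annotated span of Spef1 on the same strand, Bub3 (chromosome 7, 131560222 to 131571895) within Fgfr2 on the opposite strand, and Haspin (chromosome 11, 73135485 to 73138294) within Itgae on the opposite strand. Among all annotated protein-coding genes with every exonic base under another gene, 125 of 1486 were listed (8.41%, interval 7.05 to 9.94), against 73.2% of the others (14953 of 20438). The part of this position in the absence of Cenpb, Bub3 and Haspin was not tested. Their absence is not read here as a lack of transcription. Of the 65 listed genes, 9 had over 0.1 of their exonic bases under another gene, all of it on the opposite strand. Their median was 6.38 CPM per kilobase, against 15.7 for the other 56, and for all genes the same split gave 2.36 and 4.27. No source used here gives the strand setting of the counting, so reads of a gene and of its antisense partner cannot be told apart.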

How the data were processed

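The authors deposited raw counts per protein-coding gene symbol, in 1 column with no library named. Per the submitters' processing notes, reads were trimmed by Trimmomatic 0.38, and HISAT2, SAMtools, featureCounts (Subread 1.6.4) and GRCm38.p6 are named. For the annotation, strand setting, counted feature and any pooling of both libraries: not given in the sources used here.

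Counts were scaled by their total of 10017978 to CPM. Overlap-free genes have at most 0.1 of their exonic bases under another gene. Lengths and overlaps came from GENCODE M21 on GRCm38, matched by symbol for 14896 genes and by RefSeq synonym for 182. A further 49 symbols did not match. Counts had exact Poisson, ratios exact binomial and shares Clopper-Pearson 95% intervals. The half-width is about 21.6% of the value at 100 counts and 6.4% at 1000. Copies elsewhere were sought with blastn 2.17.0 (identity of at least 95% over at least 100 bases). Every gene matched by the symbols could be named, and of the other pathway genes the highest, the lowest detected, those not listed and 6 fixed ones. Pmf1, Ska2 and Ube2d1 were also named. The genes, lists and role groups were chosen with earlier results of these data known. Some pairs compared within complexes were added after the values were seen. Functions were tested on simulated counts. Scripts ran in Python 3.11.15 (pandas 2.3.3, scipy 1.17.1, numpy 2.4.6, matplotlib 3.10.9). A planned search for degradation motifs in the proteins was not run, and protein sequences were not used here. Some CHR sequences are not reported here.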

Additional observations from a re-analysis of the deposited data

How the results depend on the processing

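No paired analysis was possible because the counts had 1 column, and no library could be left out. The number of genes at CPM 1 or more, 64, stayed within 1.5 times that value at CPM 0.5, CPM 5, 10 counts and among overlap-free genes. The median log2 difference of 1.62 was 1.77 per kilobase, 0.93 among genes at CPM 1 or more and 1.84 among overlap-free genes. The bases before the start alone held a CHR in 10 genes instead of 20, a share of 16.4% that is below the 19.6% of all genes, and a CHR with a CCAAT box in 8 instead of 16. With the longest transcript as length, the medians per kilobase were 15.4 for the inner kinetochore, 29.5 for other CENP genes, 12.1 for the corona, 10.1 for the KMN network, 24.9 for the checkpoint, 55.4 for the passenger complex, 4.83 for shugoshins, 34.4 for separase and securin, 106 for the activators and 21.6 for the APC/C. With the RefSeq-linked length, added after the data were seen, they were 17.8, 29.6, 12.1, 14.6, 43.9, 76.0, 4.83, 67.3, 106 and 34.2 in that order, and 23.2 for the other kinases. Among overlap-free genes they were 12.6 for the inner kinetochore, 10.2 for shugoshins, which were then no longer lowest, and 18.8 for the APC/C. Among the chosen genes, the spread within complexes was 17.7 for CENP-HIKM, 3.00 for CENP-OPQU and 2.52 for the passenger complex with the longest transcript. With the RefSeq-linked length it was 4.25 for Ndc80, 1.84 for Mis12, 21.05 for CENP-HIKM, 2.45 for CENP-LN, 1.42 for CENP-OPQU, 2.53 for the passenger complex and 13.99 for the APC/C, which had 14.4 among overlap-free genes. These moves follow from the length or the genes used. Of the planned paralog and partner ratios none turned its direction. Among pairs added later, 4 crossed 1 with the RefSeq-linked length. Anapc2 over Anapc11 went from 1.56 to 0.341 and Ube2c over Ube2s from 1.29 to 0.836. Spc24 over Spc25 went from 1.37 to 0.965, whose interval of 0.878 to 1.06 includes 1. Plk1 over Aurka went from 1.06, whose interval of 0.984 to 1.13 includes 1, to 0.777 (0.795 with the longest transcript).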
